A study of Homo sapiens with 14 samples.

Results

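The 1724 KMT2D peaks described here lay in 265 dense clusters, each made of 5 or more peaks on chromosomes 1 to 22. Clusters were formed by joining neighbouring peaks whose gap was at most 12500 bp. The members were therefore chosen by the measured peak positions, and what follows describes them without a test. They made up 13.3% of the 12989 peaks of chromosomes 1 to 22 (95% Wilson interval 12.7 to 13.9%). That interval counts peaks singly although members enter as whole clusters, so it is too narrow. The members were 12.5% of all 13808 peaks in the list.

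The peaks came from a ChIP-seq library of SCC23, a long-established HNSCC line, that is, one grown from a squamous cell carcinoma of the head and neck. The cells were KMT2D wild type, labelled as a low glucose condition, and the methods describe glucose deprivation before chromatin was taken. The time without glucose was recorded here as 6 hours for all 14 samples. The paper prints 6 hours in the legend of its chromatin states. The study's knockout cells were made by transfecting a plasmid carrying Cas9 and a guide to KMT2D, with a guide to LacZ as the control. Of 14 sample labels, the peak list of 1 library, the KMT2D antibody in wild-type cells, was analysed, so there was no replicate and no knockout or glucose-fed background for any peak. The control library behind the authors' local background is not named in the sources used here.

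KMT2D, also called MLL4, is a histone methyltransferase that places methyl groups on lysine 4 of histone H3, mainly at enhancers. It works with CBP and p300, enzymes that acetylate lysine 27 of the same histone. Runs of closely spaced enhancers, often called super-enhancers when they are stitched together and ranked by signal, are known to lie at genes that are highly active in a given cell type. In squamous epithelium such genes include transcription factors of the TP63, AP-1 and TFAP2 families, integrins and keratins.

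Fold enrichment, the signal used below, is the ratio of scaled ChIP fragments to the local background at a peak's summit. Summed fold enrichment adds this ratio over the peaks of a cluster. The q-value is the p-value adjusted for the number of positions tested. Positions are GRCh37, counted from 1. The list carries no gene names and the reference annotation at hand was GRCh38, so genes were not assigned by coordinates. Genes named below were placed at clusters from general knowledge of the GRCh37 map, for 127 of the 265 clusters, and the other 138 clusters were given no gene. The 126 names checked lay on the same chromosome in RefSeq for GRCh38.p14, and all 106 pairs of neighbouring names stood in the same order there. Distances to genes, exons and introns were not analysed here.

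The sequences below show what some of these genes carry at their starts or encode. The promoters shown are those of a growth-arrest gene, a cell-survival gene, a transcriptional regulator and the shortest cluster, and these were picked after the motif search. The window is 250 bases before the gene's start in RefSeq, build GRCh38.p14, read on the gene's own strand. Capitals mark TGANTCA, the letters bound by AP-1 factors, and GGGCGG or its reverse complement CCGCCC, the GC box bound by SP factors. TGANTCA reads the same on both strands, and no marked stretch overlaps another in the windows shown. The windows were chr1:26862899-26863148 (plus strand) for SFN, chr9:127579032-127579281 (minus strand) for NIBAN2, chr20:31605039-31605288 (plus strand) for ID1 and chr16:87869508-87869757 (minus strand) for SLC7A5.
SFN: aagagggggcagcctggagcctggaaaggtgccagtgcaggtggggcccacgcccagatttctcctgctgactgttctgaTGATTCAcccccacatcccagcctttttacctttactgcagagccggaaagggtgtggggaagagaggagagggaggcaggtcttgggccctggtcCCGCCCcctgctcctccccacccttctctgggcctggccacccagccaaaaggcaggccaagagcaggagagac
NIBAN2: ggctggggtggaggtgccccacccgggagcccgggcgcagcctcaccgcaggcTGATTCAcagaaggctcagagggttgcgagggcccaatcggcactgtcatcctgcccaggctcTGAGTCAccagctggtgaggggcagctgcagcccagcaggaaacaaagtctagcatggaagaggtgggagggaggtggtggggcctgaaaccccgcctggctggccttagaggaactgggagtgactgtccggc
ID1: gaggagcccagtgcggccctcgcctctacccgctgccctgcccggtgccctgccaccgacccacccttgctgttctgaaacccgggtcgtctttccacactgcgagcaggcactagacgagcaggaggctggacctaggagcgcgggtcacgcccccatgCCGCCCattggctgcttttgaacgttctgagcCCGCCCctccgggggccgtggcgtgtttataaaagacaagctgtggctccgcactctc
SLC7A5: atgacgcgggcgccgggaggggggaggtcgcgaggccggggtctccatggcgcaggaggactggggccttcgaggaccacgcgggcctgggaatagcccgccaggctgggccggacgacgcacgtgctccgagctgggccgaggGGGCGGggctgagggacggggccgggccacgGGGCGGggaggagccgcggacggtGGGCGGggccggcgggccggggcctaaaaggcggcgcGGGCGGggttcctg
Of 125 genes named at clusters, 92 had such a sequence. TGANTCA was present in 6 of the 92 (6.52%), beside 6.60% of 27305 promoters in the table. GGGCGG was present in 68 of the 92 (73.9%), beside 42.3% of all promoters. The named genes were those recognised at clusters, not a sample of all genes, so nothing is read from that difference. The 6 genes with TGANTCA were ANXA2, BAG3, CLDN4, MT2A, NIBAN2 and SFN. The peaks themselves were not searched, because no GRCh37 sequence was used here.

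MicroRNA genes were named at 3 clusters, and the mature forms of 5 of their miRNAs are printed with the seed, bases 2 to 8, in capitals (RefSeq, GRCh38.p14). miR-23a, miR-27a and miR-24-2 come from 1 transcript. No seed was shared among the 5.
hsa-miR-23a-3p: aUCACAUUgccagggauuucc
hsa-miR-27a-3p: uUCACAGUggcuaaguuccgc
hsa-miR-24-3p: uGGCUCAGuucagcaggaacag
hsa-miR-21-5p: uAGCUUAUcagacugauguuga
hsa-miR-193a-3p: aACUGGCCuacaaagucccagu
The cluster next to MIR23A on chromosome 19 was the most heavily bound of the 3. Its 12 peaks spanned 25.6 kb and summed to a fold enrichment of 78.2, with a strongest peak of 15.3. The MIR193A cluster held 7 peaks over 47.8 kb (sum 34.7, strongest 9.27). The MIR21 cluster held 6 peaks over 32.0 kb (sum 33.5, strongest 11.5). miR-21 is a widely expressed miRNA that is often high in carcinomas.

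A dense cluster was typically a run of 6 peaks spread over 21.96 kb. Cluster length ranged from 3.33 to 63.5 kb, with quartiles of 15.97 and 28.7 kb. Together the clusters spanned 6.06 Mb, of which peaks covered 0.996 Mb. In a single cluster the peaks covered a median of 15.02% of the length (range 5.19 to 72.6%). The members held 17.1% of the bases, 15.2% of the summed fold enrichment and 16.3% of the summit fragments of all peaks on these chromosomes.

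Most clusters were small. Of the 265, 111 had exactly 5 peaks, 67 had 6 and another 67 had 7 to 9. The remaining 20 clusters had 10 or more and held 251 peaks. Median length was 16.96 kb at 5 peaks, 20.6 kb at 6, 28.0 kb at 7 to 9 and 33.6 kb at 10 or more. Summed fold enrichment was 26.4, 30.4, 42.8 and 68.3 in the same order. The median of the strongest peak was 8.11, 9.01, 10.8 and 11.2. A sum grows with the number of terms, so part of that order is set by the definition.

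Within clusters the gaps between peaks were capped by the joining rule, and gaps beyond clusters had to exceed the same limit. That inner gaps were shorter than outer gaps is therefore set by the definition, and the values below only describe their spread. The 1459 gaps between neighbouring members had a median of 2166 bp and ranged from 184 to 12480 bp. Gaps under 1 kb numbered 498 (34.1%), and 95 were 10 kb or more. Beyond the clusters the distance to the next peak had a median of 46.9 kb and a minimum of 12590 bp. Of the 530 outer gaps, 100 were under 20 kb.

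Summed fold enrichment had a median of 32.2 per cluster, with quartiles of 25.4 and 42.4 and a range of 9.17 to 132. The 26 clusters with the highest sums held 19.6% of the total over all clusters. Across clusters Spearman's rho with the sum was 0.695 for the number of peaks, 0.50 for length and 0.76 for the strongest peak (n = 265 clusters of 1 library, as a description). The number of peaks and the strongest peak were less closely related (rho 0.26). Of the 10 clusters with the highest sums, 8 were also among the 10 with most peaks, and 1 was among the 10 with the strongest single peaks.

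**Figure D1:**
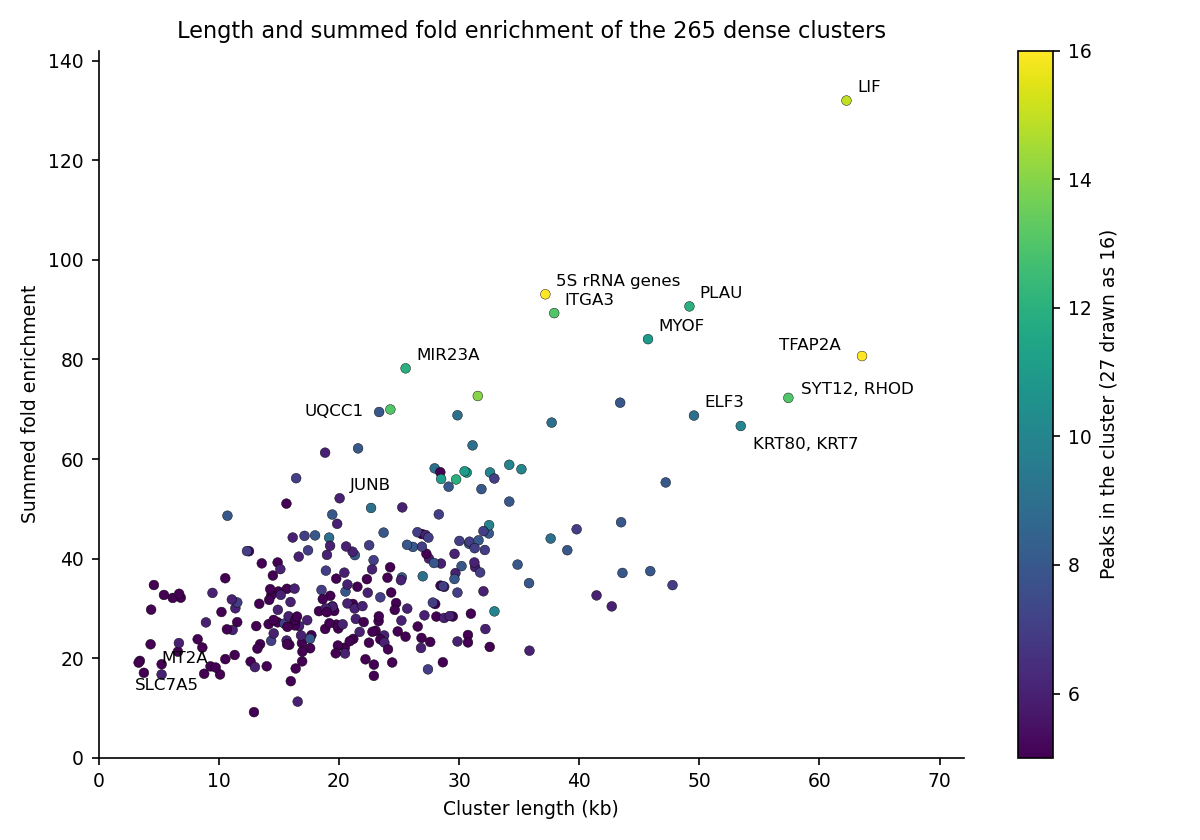
Cluster length (kb) against summed fold enrichment for the 265 dense clusters, 1 point each, coloured by the number of peaks. The LIF cluster stands highest at 132, the TFAP2A cluster is the longest at 63.5 kb, and the SLC7A5 cluster is the shortest at 3.33 kb.

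The highest sum of all belonged to the cluster at LIF, which encodes a cytokine of the IL6 family that signals through gp130 and STAT3. Its 15 peaks lay over 62.3 kb of chromosome 22 (chr22:30591967-30654221). From left to right their fold enrichments were 8.18, 22.9, 4.76, 13.3, 10.7, 5.15, 2.86, 5.38, 12.3, 5.03, 5.93, 5.37, 17.2, 3.72 and 9.17. The cluster had its highest summits near its left side, at a peak 2196 bp wide with 136 fragments, and near its right side, at a peak 3691 bp wide with 92 fragments. The latter was the widest peak of any dense cluster. In this cluster 13 of 15 q-values were 0.05 or less.

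Several clusters with high sums lay at genes of adhesion, invasion and the cell surface. The PLAU cluster, at the gene for the urokinase protease that activates plasminogen, had 12 peaks over 49.2 kb (chr10:75643431-75692612) and a sum of 90.7. Its tallest peak reached 17.4, and the next highest were 11.96, 11.2 and 10.1. The ITGA3 cluster, at the gene for the alpha chain of a laminin-binding integrin, had 13 peaks over 37.9 kb (chr17:48104582-48142505) and a sum of 89.3. There a pair of peaks were nearly equal, at 15.8 each with 95 and 93 fragments. The MYOF cluster, at the gene for a membrane repair protein of the ferlin family, had 11 peaks over 45.7 kb (chr10:95196417-95242150) and a sum of 84.1. Its highest peaks were 16.5, 11.9 and 11.6, so several sites and not a single one carried the sum.

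These 3 included, genes of this group were named at 23 clusters with 168 peaks, with sums of 23.4 to 90.7 (median 39.2). Among the others were PLEC (7 peaks, sum 56.2, strongest 17.2), whose product links intermediate filaments to hemidesmosomes, and SDC1 (7 peaks, sum 56.1), a heparan sulfate proteoglycan of epithelial surfaces. LAMA5, a laminin chain of basement membranes, had 11 peaks with a sum of 56.0. The neighbouring cadherin genes CDH3 and CDH1 each had a cluster on chromosome 16, with 10 peaks (sum 46.7) and 5 peaks (sum 23.4). ITGA6, the integrin chain that pairs with beta-4 in hemidesmosomes, had 6 peaks and a sum of 23.6, and 2 of the peaks reached a q-value of at most 0.05. High sums were not particular to this group. Signalling genes other than cytokines, EGFR and PTGES among them, were also named at 23 clusters, with 172 peaks. Their sums ran from 23.2 to 72.3, with a median of 41.0.

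**Figure D2:**
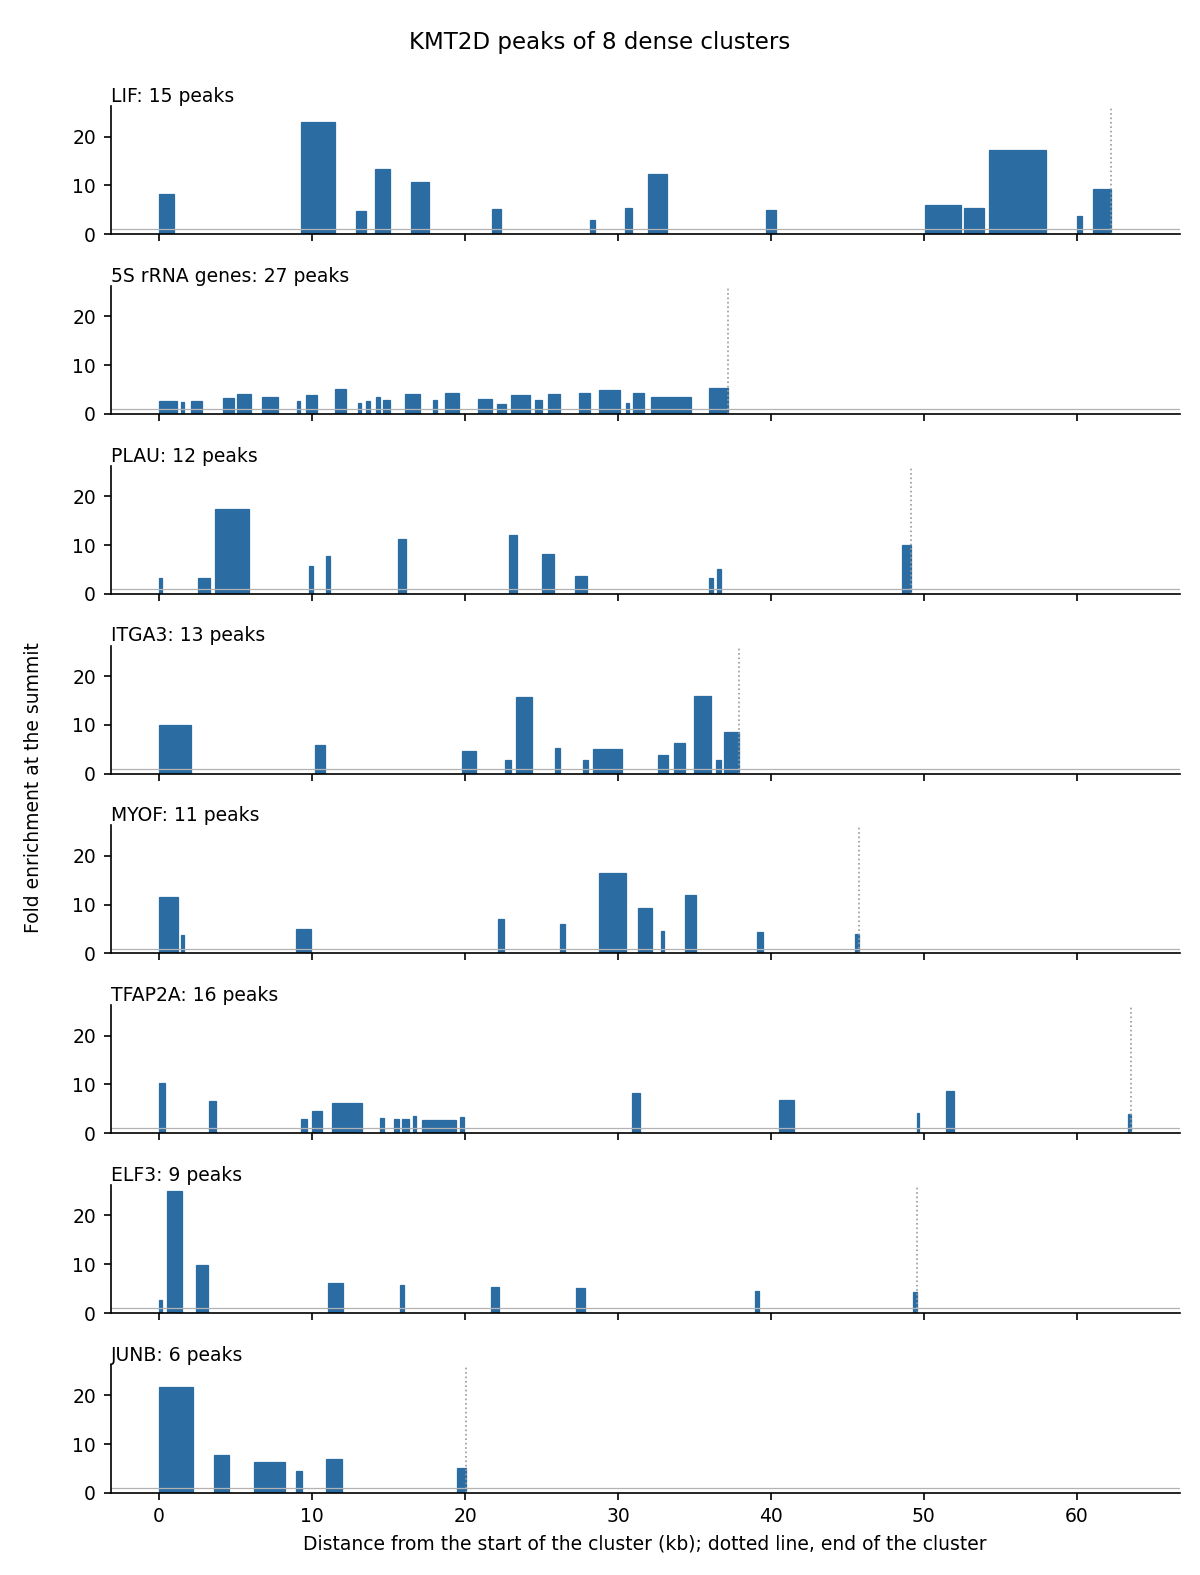
Peaks of 8 dense clusters, each drawn to scale at its distance from the start of the cluster (kb), with bar width the peak's width and height its fold enrichment. LIF, PLAU, ITGA3 and MYOF each have several tall peaks, ELF3 and JUNB have 1 peak above 20 with lower ones beside it, and none of the 27 peaks at the 5S rRNA genes exceeds 5.28.

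Genes of transcription factors, their cofactors and chromatin regulators were named at 19 clusters with 133 peaks, and the sums ran from 16.5 to 80.7 (median 34.8). The longest cluster of all was at TFAP2A, a regulator of epidermal genes, with 16 peaks over 63.5 kb (chr6:10400583-10464131). Its peaks were moderate, the highest being 10.3, 8.64, 8.24, 6.80 and 6.65, and they summed to 80.7. The ELF3 cluster, at the gene for an epithelial ETS factor, held the strongest peak of any dense cluster. That peak had a fold enrichment of 24.996 and 135 fragments, and the other 8 peaks of the cluster were at 9.90 or lower (chr1:201976477-202026035). At JUNB, a subunit of AP-1, the first of 6 peaks reached 21.8 with 128 fragments, and the others lay between 4.47 and 7.74. A further AP-1 gene, FOSL1, had 8 peaks with a sum of 54.5 and a strongest peak of 14.9.

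ID1, an inhibitor of basic helix-loop-helix factors whose promoter is printed above, had 13 peaks in 24.3 kb with a sum of 70.0. Its strongest peaks were 11.1, 9.09, 9.09 and 8.80, and 6 of the 13 reached a q-value of at most 0.05. The cluster at TP63, the master regulator of squamous epithelium, held 5 peaks over 19.3 kb with a sum of 32.5. Its strongest peak reached 14.5 with 150 fragments, and the next was 5.48. All 5 TP63 peaks had raised local background, with a cluster median of 3.65 times the genome-wide level, and the part of this in the fold enrichment was not tested. The E2F1 cluster had 5 peaks of at most 3.505, and none reached a q-value of at most 0.05.

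Cytokine and inflammatory signalling genes, LIF included, were named at 10 clusters with 70 peaks. The sums of these clusters ranged from 15.4 at TNFAIP3, an inhibitor of NF-kappaB, to 132 at LIF. IL6R, the interleukin-6 receptor, had 6 peaks (sum 39.0, strongest 13.98), and SOCS3, a feedback inhibitor of that pathway, had 6 peaks (sum 30.0, strongest 8.65). PTGES, which makes prostaglandin E, was not counted among these 10 clusters. It had only 5 peaks and a sum of 41.0, but its strongest peak was among the highest at 21.2 with 114 fragments. The other 4 PTGES peaks were at 5.90 or lower.

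Genes of growth control, survival and stress were spread over smaller clusters. SFN, the 14-3-3 sigma protein of growth arrest in epithelial cells, had 9 peaks with a sum of 58.1, and 8 of them reached a q-value of at most 0.05. BCL2L1 and MCL1, both inhibitors of apoptosis, had 8 peaks (sum 39.1) and 5 peaks (sum 23.3). EGFR, the receptor for epidermal growth factor, had 5 peaks with a sum of 31.1 and a strongest peak of 13.6. The 11 clusters at stress and metabolic genes had sums of 18.4 to 58.8 (median 24.3). The lowest sum among these 11 was at PKM, which encodes pyruvate kinase of glycolysis, with 5 peaks and a strongest peak of 5.20. At ADM, the adrenomedullin gene, 7 peaks were at most 3.75, and none reached a q-value of at most 0.05.

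Very short clusters were also found, where 5 peaks lay within less than 5 kb. The shortest, 3.33 kb, was at SLC7A5, a large neutral amino acid transporter whose promoter is printed above with 4 GC boxes. Its peaks had fold enrichments of 2.66, 3.93, 3.02, 2.84 and 6.68 (chr16:87901437-87904763), so the last stood above 4 low ones. BRD2, a bromodomain protein that reads acetylated histones, had peaks of 2.49, 3.02, 7.20, 3.38 and 3.38 in 3.43 kb. HNRNPF, an RNA-binding protein, had peaks of 2.55, 2.57, 3.33, 5.05 and 3.58 in 3.77 kb. MT2A, a metallothionein that binds zinc and copper, had peaks of 5.10, 7.74, 3.20, 2.87 and 3.89 in 4.32 kb, and peaks covered 72.6% of that length. In each of these 4 clusters, 1 to 3 of the 5 peaks reached a q-value of at most 0.05. The fifth, 4.37 kb on chromosome 5, was given no gene and had a strongest peak of 10.99. The largest gaps in these 5 clusters, in the order given, were 718, 483, 771, 412 and 447 bp. Merging peaks within 1000 bp of each other would therefore leave 1 peak at each, and none would be a dense cluster.

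Keratin 80 and keratin 7, intermediate filament proteins of epithelia, lay at 1 cluster of 10 peaks over 53.5 kb on chromosome 12. Its sum was 66.6, with highest peaks of 13.4, 11.6 and 9.74. Other clusters named for their many peaks were SYT12 and RHOD (13 peaks, sum 72.3), RHOF and SETD1B (12 peaks, sum 55.9) and MIDN (11 peaks, sum 57.5). SETD1B belongs to the same family of H3K4 methyltransferase complexes as KMT2D. NEURL1 and TMCC2, with 9 and 8 peaks, reached sums of 67.3 and 71.3. The highest peaks were 20.4 and 13.5 at NEURL1, and 16.6, 16.5 and 12.1 at TMCC2.

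Some clusters stood out although no gene was named at them or few peaks made them up. On chromosome 16, 5 peaks at chr16:87812605-87841045 summed to 57.4, with a pair at 20.2 and 17.2, and all 5 reached a q-value of at most 0.05. On chromosome 9, 5 peaks at chr9:132244285-132259914 summed to 51.1, with a pair at 18.5 and 17.2. CCDC85C, with 6 peaks, had a strongest peak of 21.0. At CST6, an inhibitor of cysteine proteases found in skin, a peak of 19.2 stood beside 5 others of at most 5.29, the highest ratio of first to second among the 265 clusters (3.62).

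In all, 12 lists holding 109 genes were looked up by name among the clusters. From these lists 20 genes were named at a dense cluster. They were 2 of 11 squamous lineage factors (TP63 and TFAP2A), 2 of 11 AP-1 genes (FOSL1 and JUNB), 2 of 9 keratins and 4 of 14 adhesion and matrix genes (ITGA6, ITGA3, CDH3 and PLEC). The others were 1 of 7 genes listed for EGFR and its ligands (EGFR), 2 of 7 IL6 family genes and 1 of 7 Hippo genes (AMOTL2). There were also 2 of 12 glucose and stress genes (TXNRD1 and SLC7A5) and 3 of 9 growth and survival genes. From 8 genes listed for nuclear receptors and their partners came 1, BHLHE40, which is not itself a nuclear receptor. No gene was named from 6 TGF-beta genes or from 8 Fanconi anemia and related genes. These counts say only which names were recognised at a cluster, not that the rest lacked peaks nearby.

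The strongest peak of a cluster had a median fold enrichment of 9.48, with quartiles of 6.83 and 12.3 and a range of 2.17 to 24.996. It reached 10 or more in 115 clusters and was under 5 in 15. Its share of the summed fold enrichment had a median of 28.3% (range 5.68 to 53.0%). It exceeded the second peak by a median of 1.30 times (quartiles 1.12 and 1.65), and in 35 clusters by 2 times or more. The strongest peak was also the widest in 133 clusters (50.2%) and had the lowest p-value in 231 (87.2%). It was the first or last peak of its cluster in 78 (29.4%), where the first and last places made up, on average, 33.1% of a cluster's places.

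Members were then set beside the other peaks of chromosomes 1 to 22, grouped by how many peaks their own cluster held. These comparisons use the same peak calls as the rule, so they are descriptions. Median fold enrichment was 4.46 in the dense clusters (quartiles 3.38 and 6.59), 4.24 in clusters of 3 to 4, 4.10 in pairs and 3.86 in peaks standing alone. Median width was 446, 378, 344 and 316 bp. Peaks wider than 1000 bp made up 12.6% of members and 3.33% of lone peaks. Fold enrichments of 10 or more made up 9.28% and 2.53%. The quartile ranges of fold enrichment overlapped between all 4 groups.

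Among the members, 1159 had a q-value of at most 0.05 (67.2%, Wilson interval 65.0 to 69.4%), beside 58.8% of all peaks on these chromosomes. The share was 63.4% in clusters of 3 to 4, 60.9% in pairs and 53.1% in lone peaks. The other 565 members did not reach it. All peaks reached it in 28 clusters and at least 3 did in 228, while 10 clusters had a single such peak and 2, at ADM and E2F1, had none. Wilson intervals cover counting error only. A median of 30 fragments lay over a member's summit, against 25 in pairs and 23 in lone peaks, and the fewest over any member was 11. Of the 100 peaks with the highest fold enrichment, 40 were members.

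**Figure D3:**
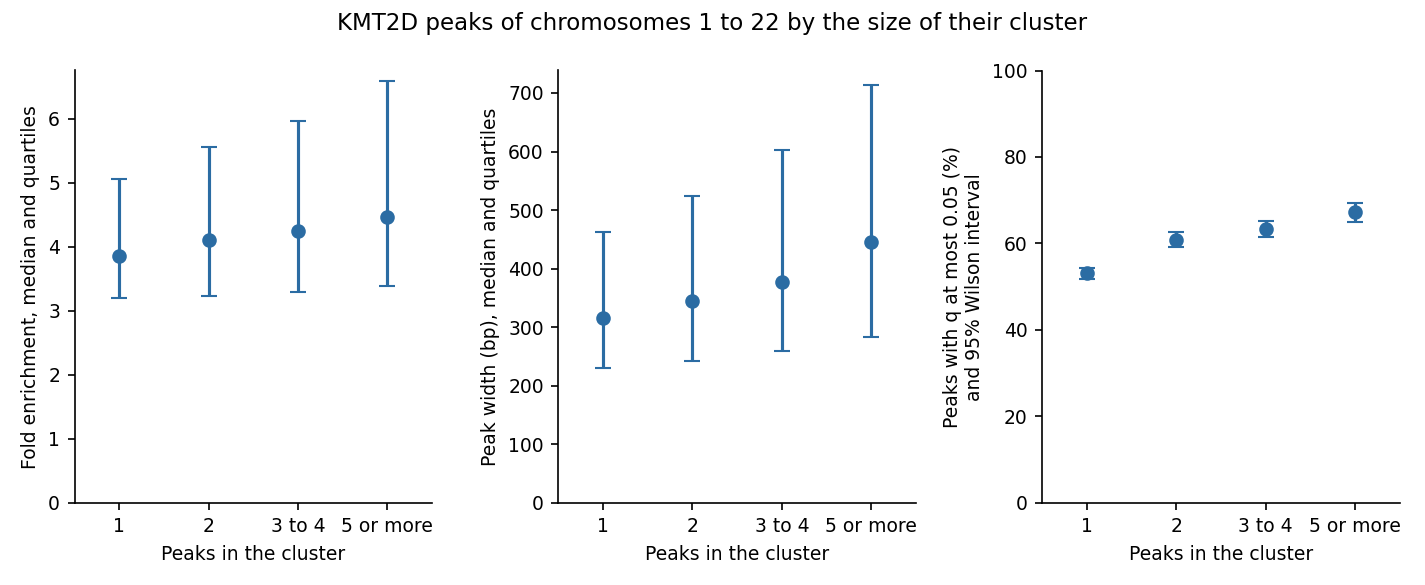
Fold enrichment and peak width (points, medians; bars, quartiles) and the percentage of peaks with a q-value of at most 0.05 (bars, 95% Wilson intervals), for peaks alone, in pairs, in clusters of 3 to 4 and in dense clusters. Medians go from 3.86 to 4.46 for fold enrichment and from 316 to 446 bp for width, with overlapping quartiles.

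At the edge of the rule, fold enrichment per peak was close, while length, sum and strongest peak were higher at 5 peaks than at 4. Part of that difference is set by the definition, since length and sum grow with the number of peaks. The 111 clusters of exactly 5 peaks had a median length of 16.96 kb, a sum of 26.4 and a strongest peak of 8.11. The 269 clusters of exactly 4 peaks had 12.3 kb, 20.03 and 7.28. Median fold enrichment per peak was 4.46 and 4.29.

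Local background varied between clusters, and it enters the fold enrichment as the denominator. It was 2 times the genome-wide level or more, here called raised, at 20.2% of members, beside 16.8% of peaks in clusters of 3 to 4, 15.8% in pairs and 12.5% of lone peaks. In 102 clusters no peak had raised background. In 20 clusters the median did. The cluster with most peaks of all, 27 over 37.2 kb at the 5S ribosomal RNA genes (chr1:228745144-228782329), was 1 of these, with a median of 3.85 times and a range of 2.68 to 13.7. Its summed fold enrichment was 93.1, but its peaks ran only from 2.01 to 5.28, and 17 of the 27 reached a q-value of at most 0.05. A cluster at transfer RNA genes on the same chromosome had 14 peaks, a sum of 72.7, a strongest peak of 11.5 and a median background of 2.74 times. Both sites hold near-identical gene copies, and the authors retained only reads with a single place in the genome. The values of both sites are therefore uncertain, and how many reads were left out there was not tested.

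The 3 clusters beside centromeres had the highest background. On chromosome 8 the medians were 59.3 and 66.6 times the genome-wide level on either side of the centromere, and on chromosome 1 the median was 7.30 times. Strongest peaks there were 2.80, 2.17 and 3.32, and both clusters of chromosome 8 had the lowest sums of all, 9.17 and 11.3. The UQCC1 cluster on chromosome 20 also had raised background at every peak (median 3.51 times), yet its strongest peak reached 20.4 with 319 fragments. Its 8 peaks had fold enrichments of 2.77, 20.4, 13.6, 3.89, 9.67, 10.3, 5.09 and 3.70, and they summed to 69.5.

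**Figure D4:**
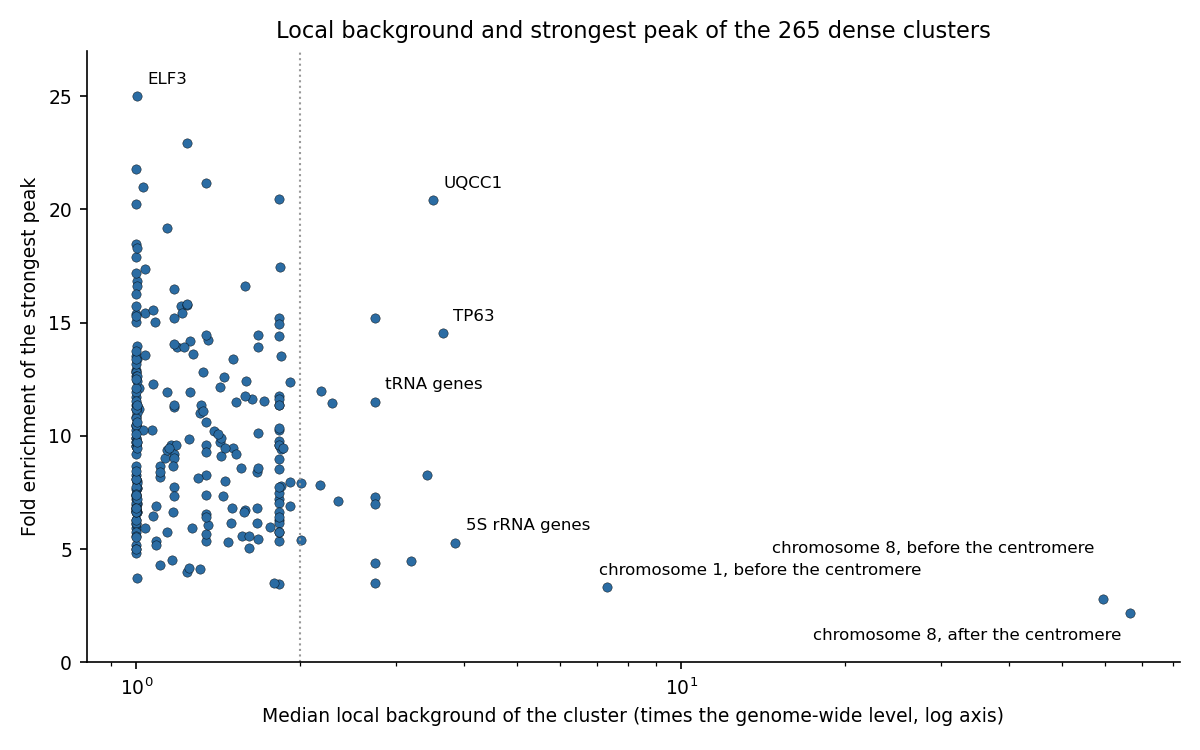
Median local background of each dense cluster (times the genome-wide level, log axis) against the fold enrichment of its strongest peak, 1 point for each of 265 clusters, with a dotted line at 2 times. The 20 clusters at or right of the line include UQCC1 (20.4), TP63 (14.5) and the 5S rRNA genes (5.28), and the 3 clusters near centromeres lie farthest right with strongest peaks of 3.32 or less.

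Dense clusters were spread unevenly over chromosomes. Chromosome 1 had 36 and chromosome 18 had 1. Per 10 Mb between the first and the last peak, chromosome 22 had 2.87, chromosome 19 had 2.38 and chromosome 17 had 2.34, while chromosome 18 had 0.134. The share of a chromosome's peaks that were members was highest on chromosome 19 (21.3%, interval 17.9 to 25.3%), chromosome 20 (19.7%, 15.98 to 24.0%) and chromosome 22 (19.3%, 15.5 to 23.7%). These 3 intervals overlapped. Members enter as whole clusters of 5 or more peaks, so intervals that count peaks singly are too narrow to compare chromosomes. The member share was lowest on chromosome 18 (3.97%, 1.71 to 8.95%, from 1 cluster) and chromosome 15 (4.64%, 2.92 to 7.31%, from 3 clusters). Chromosome 17, with 10.8 peaks per Mb, the highest density of all, had a member share of 13.8%.

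**Figure D5:**
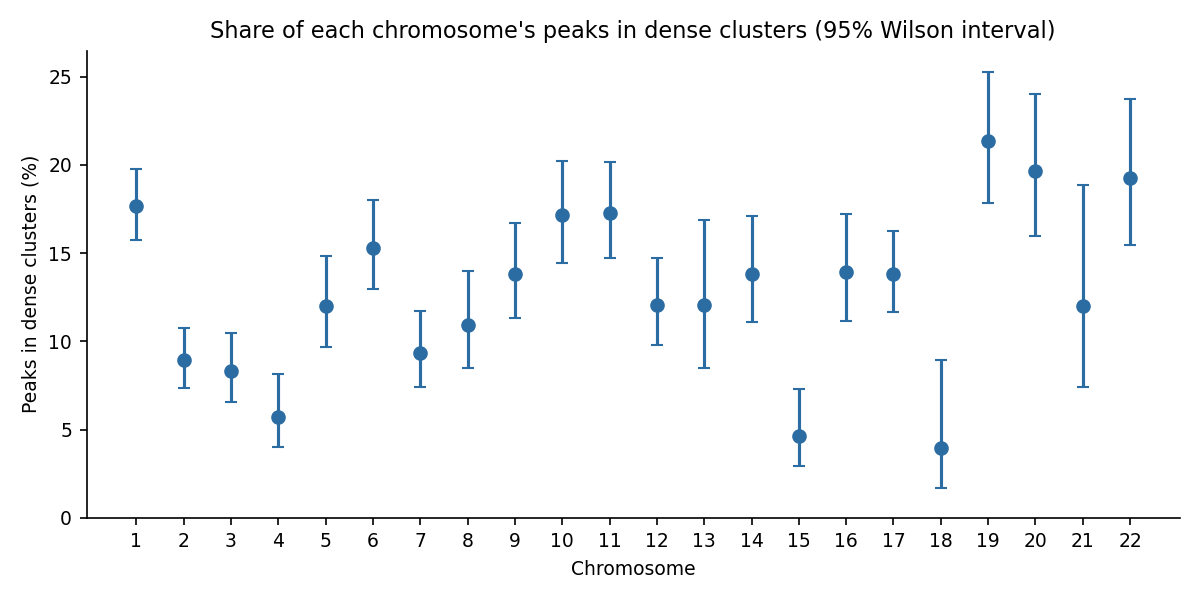
Percentage of the KMT2D peaks of each chromosome that lay in dense clusters, with 95% Wilson intervals. The shares run from 3.97% on chromosome 18 to 21.3% on chromosome 19. The intervals count peaks singly although members enter as whole clusters, so they are too narrow.

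Dense clusters could lie beside each other. Within 100 kb of another dense cluster were 40 clusters, in 19 groups. The group with the most peaks, 22 over 177 kb of chromosome 11, joined clusters at the long non-coding RNA genes NEAT1 and MALAT1 with one at EHBP1L1, and its summed fold enrichment was 115. MALAT1 alone had 7 peaks, a sum of 44.2 and a strongest peak of 13.9. A group of 3 clusters around ERGIC1 on chromosome 5 held 19 peaks over 133 kb with a sum of 102. Pairs included ID1 with BCL2L1 on chromosome 20 (21 peaks, sum 109), SBNO2 with MIDN on chromosome 19 (20 peaks, sum 108) and FOSL1 with CST6 on chromosome 11 (14 peaks, sum 91.6).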

How the data were processed

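KMT2D ChIP-seq of KMT2D-WT SCC23 cells was analysed from 1 peak list. Per the labels and methods, the authors aligned reads with Bowtie2 to hg19 (GRCh37), retained those with a single place in the genome and ran MACS2 at a p-value limit of 0.01. The largest listed p-value was 0.00984. Total depth is unknown from a peak list. The deposited fold enrichment is the ratio of scaled ChIP pileup to local background at the summit, with a pseudocount added to both. The deposited −log10 columns hold each summit's q-value and p-value. The deposited score follows the −log10 p-value and was not used.

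Peaks of chromosomes 1 to 22 were stitched over gaps of at most 12500 bp, and clusters of 5 or more peaks were kept. Fold enrichments were summed per cluster. Because fold enrichment and p-value derive from the same pileup and background, the whole number of summit fragments and the background beside them were worked out from both. With a scale of 0.381 and 1.10 scaled fragments (2.88 fragments) as the genome-wide level, the fragments were whole numbers within 0.05 for 99.99% of peaks. The rebuilding and the stitching were tested on simulated data. Background was called raised from 2 times the genome-wide level.

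No test was run, since 1 library gives no replicate and the rule used the same peak calls. Shares carry Wilson intervals at the 95% level, which cover counting error only. They treat peaks as separate units, so they are too narrow for shares of membership, which is given to whole clusters. Members and lists were chosen with earlier results of these data known. Named clusters were the 12 with most peaks, the 10 with the highest summed fold enrichment, the 10 with the strongest single peaks, the 5 longest, the 5 shortest and those at genes of 12 lists. Other clusters were named after their values were seen, and the grouping of genes by role was made by hand. Gene names rest on general knowledge of the GRCh37 map. Promoter and miRNA sequences, gene order and chromosome came from RefSeq for GRCh38.p14, and no coordinate was converted. Alternatives changed the gap, the number of peaks, the q-value limit, the merging of near peaks, the background limit and the measure of strength. Python 3.11.15, numpy 2.4.6, pandas 2.3.3, scipy 1.17.1 and matplotlib 3.10.9 were used.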

Additional observations from a re-analysis of the deposited data

Results flagged for a closer look

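Dense clusters also lay outside chromosomes 1 to 22, in peaks that the description above does not use. The X chromosome had 2, with 30 peaks, of which the larger held 20, and the median fold enrichment of these peaks was 2.99. The decoy sequence had 25, with 171 peaks and a median fold enrichment of 1.72. Unplaced contigs had 4, with 36 peaks and a median of 1.72. The input library named in the labels was not analysed here, so no background was set beside these counts.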

How the results depend on the processing

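Of 46 alternative values, 17 moved by less than the margin of counting error or stayed within 1.5 times for a count, 29 moved and 0 reversed. The number of dense clusters (265) and of members (1724) followed the definition most closely. With gaps of up to 5000 bp there were 92 clusters of median length 10.4 kb and 573 members, and with gaps of up to 25000 bp there were 472 clusters of 37.9 kb and 3257 members. Requiring at least 4 peaks gave 534 clusters and 2800 members (length 16.5 kb, sum 24.4, strongest 8.12). Requiring at least 6 gave 154 clusters (length 26.4 kb, sum 39.2). Using only peaks with a q-value of at most 0.05 left 100 clusters and 612 members (sum 38.6, strongest 10.0). Merging peaks within 1000 bp of each other first gave 135 clusters and 793 merged members (length 27.9 kb, sum 34.9, strongest 10.2), and the difference in median fold enrichment between members and other peaks went from 0.51 to 1.08. Leaving out peaks of raised local background gave 162 clusters and 1012 members. In each of these settings members kept the higher median fold enrichment, by 0.36 to 1.08. The share of members with raised background, 20.2%, was 40.8% from 1.5 times the genome-wide level and 7.95% from 3 times. Weighting fold enrichment by peak width kept 6 of the 10 clusters with the highest sums. Limiting genes to those overlapping a cluster was not run, since no GRCh37 annotation was used here. No paired analysis was possible because there was 1 library. Of the members, 565 did not reach a q-value of 0.05, and the fewest fragments over a member's summit were 11. Total depth is unknown, and its part in these calls was not tested.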
